A study of Mus musculus with 6 samples.

Results

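The scavenger and efferocytosis receptors described here are 10 genes chosen by symbol, out of 24346 genes listed per library. They are Msr1, Marco, Cd163, Stab1, Vsig4, Timd4, Mertk and Axl, which encode cell-surface receptors, and Cd5l and Mfge8, which encode secreted proteins of the same uptake systems. All 10 were listed in every library, and 9 passed the expression filter of at least 1 FPKM (fragments per kilobase of transcript, scaled to sequencing depth) in at least 3 of the 6 libraries. Stab1 did not pass it. RNA sequencing was done on mouse splenic CD11c+ dendritic cells in 2 groups, 3 libraries of cells treated with IL-33 and 3 libraries of cells treated with PBS, the control. IL-33 is an alarmin of the IL-1 family. The labels give no strain, genotype, age, dose or time, and do not say whether treatment was in the animal or in culture. Nothing in them ties a library to an animal or a culture of its own. The p-values therefore reflect only how much these particular libraries vary, and that variation may be technical.

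Scavenger receptors take up modified lipoproteins, bacterial surface polymers, haemoglobin complexes and cell debris. Efferocytosis is the uptake of apoptotic cells, which phagocytes recognise by phosphatidylserine on the outer leaflet of the dying cell. Timd4 and Stab1 bind phosphatidylserine themselves, whereas Mertk and Axl, receptor tyrosine kinases of the TAM family, bind it through the bridging proteins Gas6 and protein S, and integrins bind it through Mfge8. In the mouse spleen these genes are known mainly from macrophages: Marco from the marginal zone, Cd163, Cd5l, Axl and Mertk from the red pulp.

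Markers of dendritic cells were present in all libraries. Itgax, which encodes CD11c itself, stood between 272 and 300 FPKM with IL-33 and between 228 and 248.9 FPKM with PBS. Of 7 general dendritic cell markers 4 rose (Itgax, H2-Aa, H2-Ab1 and Cd74) and 2 fell. Those lower were Flt3 (log2 change -0.61) and Zbtb46 (-0.63), and Dpp4 did not pass. Over all tested genes 28.0% were higher and 25.5% lower. All 7 tested T cell markers and all 7 NK cell markers were lower with IL-33, while 6 of 7 plasma cell markers were higher, 1 of them (Tnfrsf17) having passed the filter through the IL-33 libraries alone. Red pulp macrophage markers were present too. The 10 listed markers (Adgre1, Vcam1, Spic, Hmox1, Slc40a1, Treml4, Mrc1, Fcgr1, Cd68 and Csf1r, none of them at 0) summed to 3067, 2580 and 3453 FPKM in the 3 IL-33 libraries, and to 2019, 3033 and 3241 FPKM in the 3 PBS libraries. Of the 10, Cd68 rose and the other 9 did not pass the test. The groups overlapped in this sum, and the libraries within each group differed. The FPKM values of a library summed to between 778391 and 841884 with IL-33 and between 614522 and 641412 with PBS. The smallest FPKM steps gave depths between 0.940 and 1.22 times that of PBS replicate 1, without separating the groups. These depths hold any scaling between libraries, whose method is not given, and need not equal sequencing depth.

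Sequence upstream of the transcription start is shown for 4 members on which the results turn: Timd4 and Mfge8, which rose with IL-33, and Axl and Mertk, whose ratio did not overlap between the groups. The sequences are the 250 bases before the RefSeq start in GRCm38.p6 (mm10), 5′ to 3′ on the strand of the gene, with CG dinucleotides in capitals. Timd4 lies at chr11:46810549-46810798 on the plus strand, Mfge8 at chr7:79149061-79149310 on the minus strand, Axl at chr7:25788734-25788983 on the minus strand and Mertk at chr2:128698665-128698914 on the plus strand.
Timd4: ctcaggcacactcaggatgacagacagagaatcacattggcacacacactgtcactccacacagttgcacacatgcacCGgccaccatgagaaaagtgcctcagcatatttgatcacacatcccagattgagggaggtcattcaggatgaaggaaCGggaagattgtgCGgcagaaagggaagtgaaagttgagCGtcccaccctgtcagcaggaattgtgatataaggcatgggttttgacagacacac
Mfge8: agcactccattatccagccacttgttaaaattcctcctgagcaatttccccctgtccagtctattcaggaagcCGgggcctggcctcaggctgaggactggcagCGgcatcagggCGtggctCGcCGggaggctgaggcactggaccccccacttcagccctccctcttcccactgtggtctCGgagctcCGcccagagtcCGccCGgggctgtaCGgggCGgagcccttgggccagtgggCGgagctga
Axl: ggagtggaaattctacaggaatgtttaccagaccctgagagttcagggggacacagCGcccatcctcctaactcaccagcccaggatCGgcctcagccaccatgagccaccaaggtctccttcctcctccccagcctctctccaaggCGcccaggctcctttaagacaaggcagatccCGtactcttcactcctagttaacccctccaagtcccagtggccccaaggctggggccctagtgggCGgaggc
Mertk: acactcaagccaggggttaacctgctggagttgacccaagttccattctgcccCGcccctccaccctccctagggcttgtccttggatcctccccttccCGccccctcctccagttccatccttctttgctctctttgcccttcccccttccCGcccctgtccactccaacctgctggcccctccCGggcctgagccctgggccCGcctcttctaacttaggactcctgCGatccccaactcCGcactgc
CG dinucleotides numbered 4 for Timd4, 12 for Mfge8, 5 for Axl and 7 for Mertk. The median over 32544 promoters of the same length was 6, with quartiles of 2 and 16. A start site was matched for 9 of the 10 members, all but Msr1, whose upstream sequence was not examined. Marco, Cd5l and Cd163 had 0 CG dinucleotides in these 250 bases.

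In windows of 300 bases, from 250 before to 50 after the start, 8 motifs were searched on both strands. Msr1 had no window and was not searched. The AP-1 motif TGANTCA, the STAT motif TTCNNNGAA, the PU.1 motif GAGGAAGT, the lysosomal E-box TCACGTG, the TATA box TATAAA and the NF-κB motif had no match in the 9 windows. They were matched in 7.79%, 8.33%, 3.11%, 3.79%, 13.6% and 0.415% of all promoters, in that order. The MAF element TGCTGAC was matched once, on the minus strand of the Timd4 window from 45 bases before the start (GTCAGCA as printed in the sequence), and in 4.65% of all promoters. The wider-spaced STAT6 motif was matched at the upstream end of the Cd5l window and in 6.98% of all promoters.

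Transcripts of 3 of the 9 tested members were higher with IL-33. Msr1 was 3.21-fold higher in mean FPKM, Timd4 1.42-fold and Mfge8 1.32-fold. Vsig4 levels of the 3 IL-33 libraries all lay under those of the PBS libraries, but the gene did not pass the test. Marco, Mertk, Axl, Cd5l and Cd163 had overlapping groups and did not pass. The test was limma on log2(FPKM + 1) across all 11518 genes that passed the filter, with Benjamini-Hochberg adjustment and a threshold of 0.05. In that test 53.6% of all genes passed, 28.0% as higher and 25.5% as lower with IL-33, so 3 higher of 9 is a share near the background. None of the members passed as lower by limma, and 1 (Vsig4) was lower at an unadjusted p under 0.05. The median change of the 9 was 0.21 on the log2(FPKM + 1) scale, against 0.01 for all tested genes. Groups did not overlap for 3 members that were higher and 1 that was lower, that is 4 of 9, against 63.6% of all tested genes (32.7% higher and 30.9% lower). With libraries rescaled to equal totals, 17.8% of calls among all genes were higher, against 52.4% as deposited, and the median change of all genes was -0.29.

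**Figure D1:**
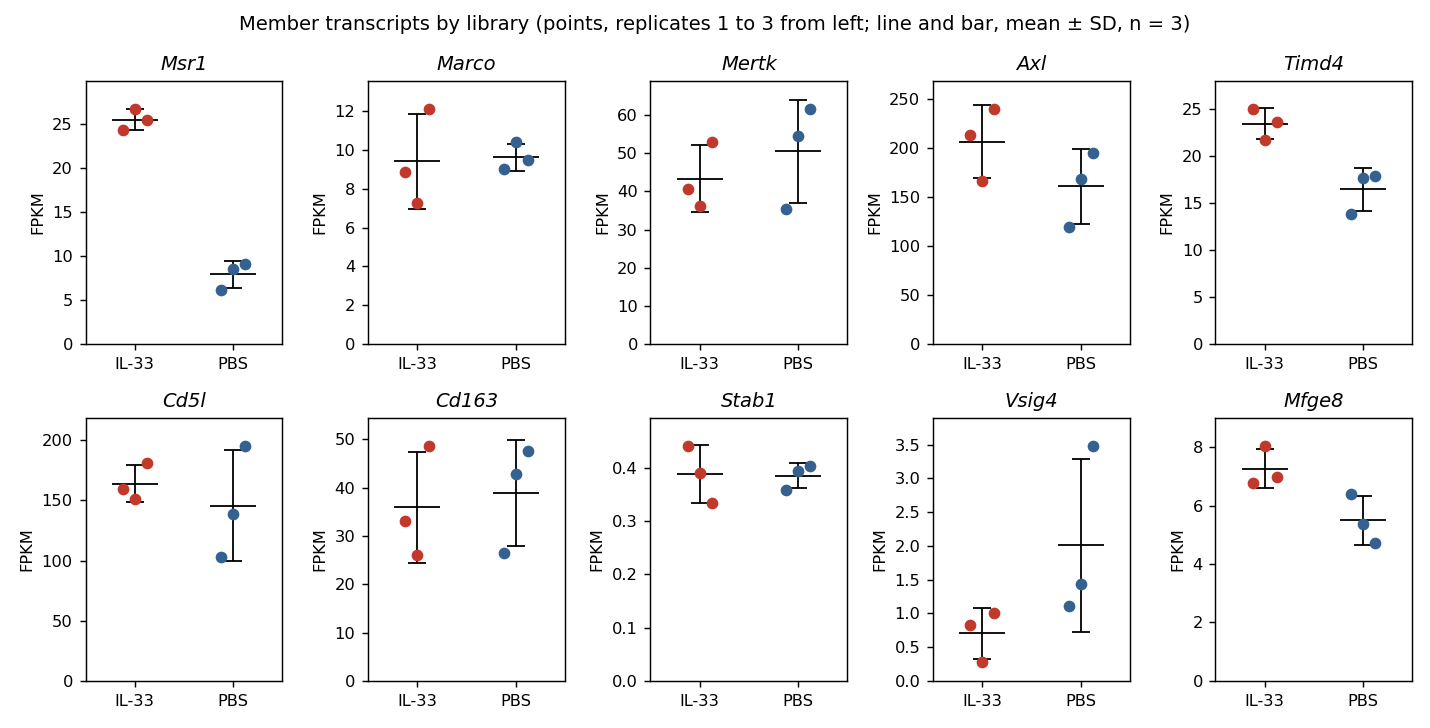
FPKM of each of the 10 members in every library (points), with IL-33 left of PBS, and the mean and SD of 3 libraries (line and bar). The 3 IL-33 libraries lie above all PBS libraries for Msr1, Timd4 and Mfge8 and below them for Vsig4.

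**Figure D2:**
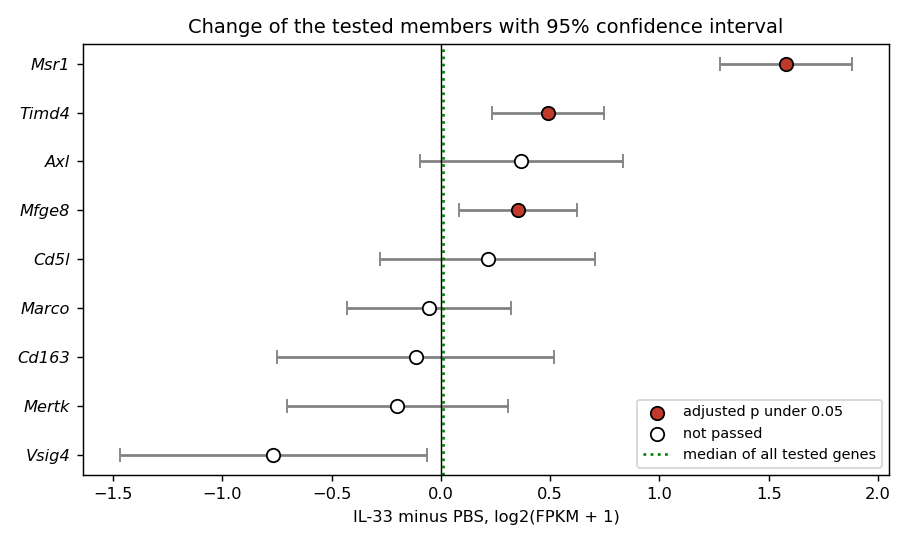
Change of the 9 tested members, as log2(FPKM + 1) with IL-33 minus that with PBS, with 95% confidence intervals from limma. Msr1 stands apart at 1.58, and the intervals of Axl, Cd5l, Marco, Cd163 and Mertk span 0.

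Msr1 encodes the founding class A scavenger receptor, a trimeric membrane protein with a collagen-like stalk that binds modified low-density lipoprotein, bacterial polyanions and apoptotic cells. Its locus in mm10 is chr8:39581685-39642673 (minus strand). Msr1 stood at 24.3, 26.7 and 25.5 FPKM in the 3 IL-33 libraries (replicates 1, 2 and 3 in turn here and below), against 6.20, 8.49 and 9.13 FPKM in the 3 PBS libraries. The IL-33 libraries lay close together and far above the PBS libraries, with no overlap. The means were 25.5 ± 1.19 FPKM with IL-33 and 7.94 ± 1.54 FPKM with PBS (SD, n = 3 each), a log2 change of 1.58 (SE 0.13, limma adjusted p = 0.000269). It was change number 147 from the highest among 11518 genes. In rank within a library, which does not depend on scaling between libraries, Msr1 stood at percentiles 68.3 to 70.9 of the tested genes with IL-33 and 29.8 to 41.0 with PBS. The call held under all 18 alternative settings, where the change lay between 1.27 and 1.69.

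The level of Msr1 was also set against the macrophage markers of the same library, a measure added after the values were seen. Msr1 amounted to 0.792%, 1.03% and 0.738% of the summed red pulp macrophage markers in IL-33 replicates 1, 2 and 3, and to 0.307%, 0.280% and 0.282% in PBS replicates 1, 2 and 3. These shares did not overlap, and their log2 difference was 1.55. Summed markers of eosinophils, neutrophils and marginal zone macrophages were higher in the IL-33 libraries as well. Monocyte markers overlapped between the groups, at 2761, 2944 and 2676 FPKM with IL-33 and 2381, 2807 and 2822 FPKM with PBS, with 2 of 9 tested markers higher and 3 lower. Eosinophil markers summed to 870 to 1238 FPKM with IL-33 and 216 to 310 FPKM with PBS, with 6 of 8 tested markers higher and none lower. Of these 6, 3 (Epx, Ear1 and Ear6) passed the filter through the IL-33 libraries alone and so had to be higher. Ear2 made up most of the eosinophil sum (609 to 869 FPKM with IL-33, 174 to 243 with PBS). Ccr3 (means of 51.4 FPKM with IL-33 and 51.2 with PBS) and Il5ra (1.30 and 1.79) did not pass. Neutrophil markers summed to 1216 to 2452 FPKM with IL-33 and 479 to 790 FPKM with PBS, with 6 of 7 higher and none lower. Of 4 tested markers of marginal zone and metallophilic macrophages 3 rose, and their sum was 159 to 197 FPKM with IL-33 and 53.3 to 75.2 FPKM with PBS. Most of this sum came from Nr1h3 (79.0 to 103 FPKM with IL-33, 34.4 to 51.9 with PBS) and Ccl22 (44.6 to 92.8 and 11.7 to 15.6). Siglec1 rose by 0.61, and Cd209b did not pass (means of 3.23 FPKM with IL-33 and 2.48 with PBS, limma adjusted p = 0.229). No listed marker of these cell types was at 0 in all libraries. Their part in the level of Msr1 was not tested, and in bulk samples more cells of a type and more RNA per cell cannot be told apart.

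Marco encodes the other class A receptor among the members, which binds bacteria and is known from marginal zone macrophages. It stood at 8.87, 7.25 and 12.1 FPKM in the 3 IL-33 libraries and at 9.01, 10.4 and 9.46 FPKM in the 3 PBS libraries. The IL-33 libraries spanned the whole PBS range. The log2 change was -0.05 (95% confidence interval -0.43 to 0.32, limma adjusted p = 0.798), and its sign turned positive with quantile normalization (0.015), with cyclic loess (0.05) and without IL-33 replicate 2 (0.10). The ratio of Msr1 to Marco within a library was 2.74, 3.68 and 2.11 with IL-33 and 0.688, 0.818 and 0.965 with PBS. Msr1 was thus the more abundant of the pair per length in each IL-33 library and the less abundant in each PBS library. The log2 difference of this ratio was 1.76 (exact two-sided permutation p = 0.1, the smallest that 3 against 3 libraries allow, and 0.15 adjusted over the 6 ratios compared).

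Timd4 encodes a membrane protein that tethers apoptotic cells by phosphatidylserine and is known from resident macrophages. Its locus in mm10 is chr11:46810800-46844332 (plus strand). Its levels were 24.998, 21.7 and 23.6 FPKM in the 3 IL-33 libraries, against 13.9, 17.7 and 17.9 FPKM in the 3 PBS libraries. Every IL-33 library was above every PBS library, and PBS replicate 1 was the lowest. The means were 23.4 ± 1.65 FPKM with IL-33 and 16.5 ± 2.27 FPKM with PBS (SD, n = 3 each), a log2 change of 0.49 (SE 0.11, limma adjusted p = 0.00833). Its percentile was 65.7 to 68.9 with IL-33 and 53.5 to 61.5 with PBS, again without overlap. The call held with each library left out in turn (0.38 to 0.55). It was lost with equal totals (0.17, adjusted p = 0.171) and with an equal red pulp macrophage marker sum (0.34, adjusted p = 0.457). Relative to the median change of all genes, Timd4 was at 0.48 as deposited, 0.46 with equal totals and 0.47 with an equal marker sum. Both scalings multiply a library by 1 factor, which subtracting the median nearly removes, so these values had to be close. With quantile normalization and with cyclic loess, Timd4 was at 0.46 relative to the median. As a share of that sum, Timd4 was at 0.815%, 0.842% and 0.683% with IL-33 and at 0.686%, 0.583% and 0.552% with PBS, which overlap by a narrow margin.

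Mfge8 encodes the secreted protein that links phosphatidylserine to the integrins αvβ3 and αvβ5. It stood at 6.79, 8.04 and 6.98 FPKM in the 3 IL-33 libraries and at 6.39, 5.36 and 4.74 FPKM in the 3 PBS libraries. The groups did not overlap, although IL-33 replicate 1 and PBS replicate 1 were close. The log2 change was 0.35 (SE 0.11, limma adjusted p = 0.0346). Its percentile was 35.0 to 39.2 with IL-33 and 24.6 to 30.5 with PBS. The call held under 9 of the 18 alternatives and with 1 of the 6 libraries left out (PBS replicate 1). It was lost without IL-33 replicates 1, 2 or 3 (0.39, 0.29 and 0.38), without PBS replicates 2 or 3 (0.34 and 0.27), with equal totals (0.06) and with an equal macrophage marker sum (0.21). Markers of stromal and follicular dendritic cells, another known source of Mfge8 in the spleen, summed to 1.01 to 1.40 FPKM with IL-33 and 1.21 to 1.91 FPKM with PBS, and none of the 8 passed the filter. Madcam1 among them was at 0 in the 3 IL-33 libraries, and Pdpn in the 3 PBS libraries. In contrast to the other members, Mfge8 was highest in PBS replicate 1 and lowest in PBS replicate 3 among the PBS libraries.

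Axl was the most abundant member per length in both groups. It is a kinase that binds Gas6 and restrains inflammatory signalling in phagocytes. Axl stood at 214, 166 and 239.9 FPKM in the 3 IL-33 libraries and at 119.6, 169 and 196 FPKM in the 3 PBS libraries. The groups overlapped, since PBS replicates 2 and 3 were above IL-33 replicate 2. The means were 207 ± 37.3 FPKM with IL-33 and 161 ± 38.5 FPKM with PBS (SD, n = 3 each), and the log2 change of 0.37 did not pass (95% confidence interval -0.10 to 0.83, limma adjusted p = 0.155). Its sign turned with quantile normalization (-0.02) and cyclic loess (-0.01).

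Mertk, the TAM kinase used for clearing apoptotic cells in steady state, lies at chr2:128698956-128802894 in mm10 (plus strand). An annotated antisense gene, Gm14011, overlaps it, and whether the counting used strand is not given, so reads of the pair cannot be told apart. Mertk stood at 40.7, 36.2 and 53.0 FPKM in the 3 IL-33 libraries and at 35.5, 54.6 and 61.5 FPKM in the 3 PBS libraries. The groups overlapped over most of their range. The log2 change was -0.20 (95% confidence interval -0.71 to 0.31, limma adjusted p = 0.465), negative under all 18 alternatives (-0.53 to -0.04).

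The ratio of Mertk to Axl separated the groups although neither gene passed by itself. Mertk amounted to 0.190, 0.218 and 0.221 of Axl in IL-33 replicates 1, 2 and 3, and to 0.297, 0.324 and 0.314 of Axl in PBS replicates 1, 2 and 3. All IL-33 libraries lay below all PBS libraries. Among PBS libraries Mertk itself differed by 1.73 times between the highest and lowest library and Axl by 1.64 times, while their ratio differed by 1.09 times. Among IL-33 libraries the figures were 1.46 for Mertk, 1.44 for Axl and 1.16 for the ratio. The log2 difference of the ratio was -0.57 (exact two-sided permutation p = 0.1, the smallest possible, adjusted p = 0.15 over 6 ratios). Set against the red pulp marker sum, Axl was at 6.97%, 6.45% and 6.95% with IL-33 and at 5.92%, 5.56% and 6.03% with PBS, higher in each IL-33 library. Mertk was at 1.33%, 1.40% and 1.53% with IL-33 and at 1.76%, 1.80% and 1.90% with PBS, lower in each IL-33 library. Vcam1 and Hmox1, the markers with the highest mean FPKM in the sum, had changes of opposite sign. These were 0.44 for Vcam1 (limma adjusted p = 0.208) and -0.23 for Hmox1 (limma adjusted p = 0.327). Levels of Axl and Mertk relative to single markers were not computed, so both separations hold for this sum only. How often ratios of other gene pairs, or shares of the marker sum, separate the groups was not computed. Among single tested genes 63.6% did not overlap. With the deposited table rescaled to equal marker sums, limma called neither Axl (adjusted p = 0.639) nor Mertk (adjusted p = 0.424). In that setting only 4.79% of all genes were called higher and 8.26% lower.

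**Figure D3:**
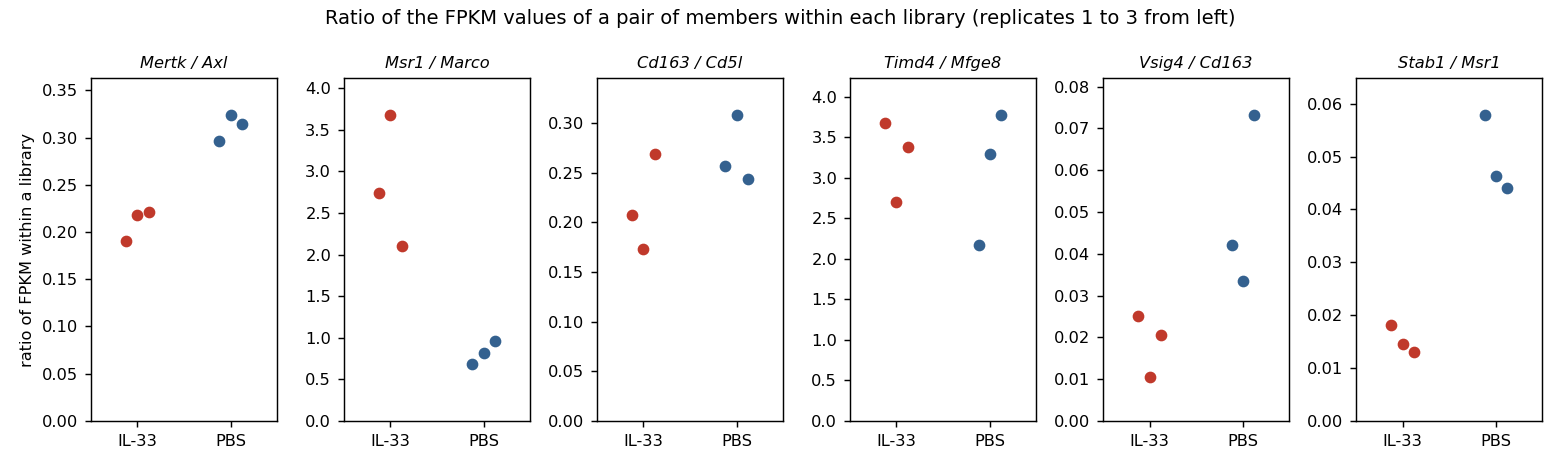
Ratio of the FPKM values of 6 pairs of members within each library, IL-33 left of PBS, 1 point per library. The groups do not overlap for Mertk over Axl, Msr1 over Marco, Vsig4 over Cd163 and Stab1 over Msr1, and overlap for the other 2 pairs. Msr1 is in both Msr1 over Marco and Stab1 over Msr1. Of single tested genes 63.6% did not overlap, and the share among ratios of other genes was not computed.

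Cd163 and Cd5l share the scavenger receptor cysteine-rich domain. Cd163 takes up haemoglobin bound to haptoglobin, and Cd5l is secreted by macrophages and circulates bound to IgM. Cd163 stood at 33.1, 26.1 and 48.7 FPKM in the 3 IL-33 libraries and at 26.4, 42.8 and 47.5 FPKM in the 3 PBS libraries. Cd5l stood at 159.7, 151 and 181 FPKM in the 3 IL-33 libraries and at 103, 139 and 195 FPKM in the 3 PBS libraries. The groups overlapped for both genes, and the spread within a group was wider than the difference of the means. The log2 change of Cd163 was -0.12 (95% confidence interval -0.75 to 0.52, limma adjusted p = 0.741), positive without IL-33 replicate 2 (0.09) or PBS replicate 3 (0.05). That of Cd5l was 0.21 (95% confidence interval -0.28 to 0.71, limma adjusted p = 0.418). Cd5l passed without PBS replicate 3 (0.45, adjusted p = 0.0369, where the 18 alternatives spanned 0.0369 to 0.961) and was negative with equal totals (-0.12, but 0.17 relative to the median of all genes), quantile normalization (-0.13), cyclic loess (-0.15) and without PBS replicate 1 (-0.01).

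Axl, Mertk, Cd5l, Cd163 and Vsig4 shared 1 order of libraries within each group. From low to high the order was replicates 2, 1 and 3 among IL-33 libraries and replicates 1, 2 and 3 among PBS libraries. The summed red pulp macrophage markers had the same order, and so had 7 of the 10 markers singly, Adgre1, Vcam1, Spic, Hmox1, Mrc1, Fcgr1 and Csf1r. How many of all tested genes have this order was not counted, so no background stands beside these numbers. The order of Vsig4 rests on low levels. The share of macrophages in the sorted cells was not measured, and its part in these levels was not tested.

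**Figure D4:**
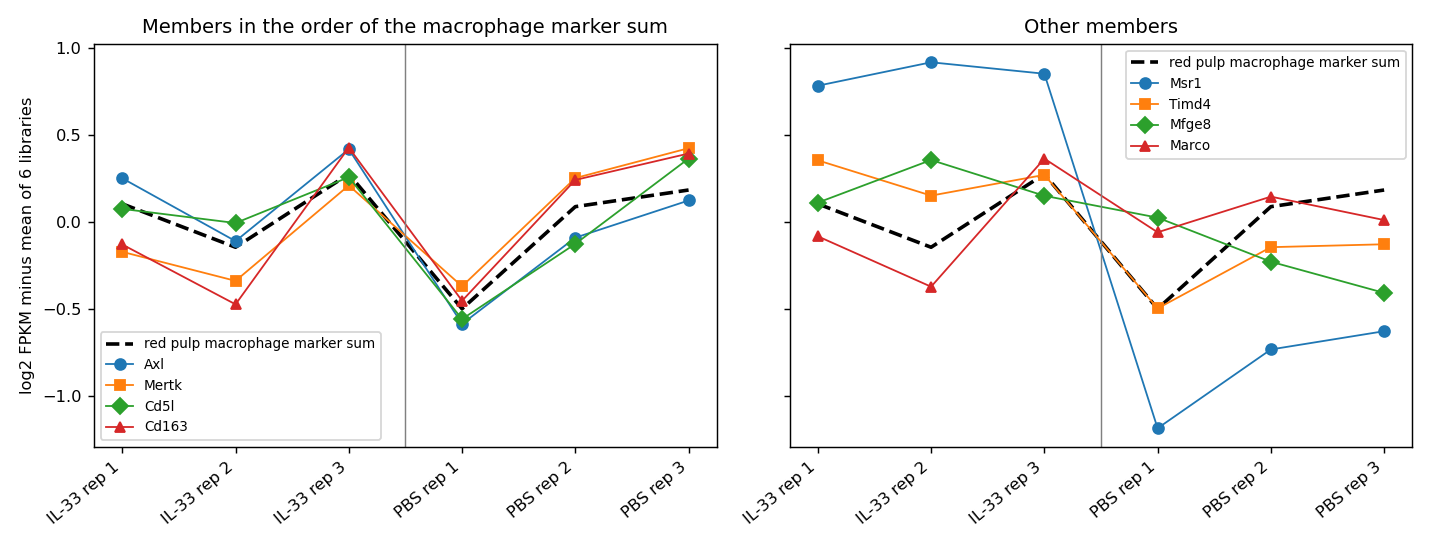
Level of 8 members in each of the 6 libraries, as log2 FPKM minus the mean over the libraries, with the summed red pulp macrophage markers dashed. Axl, Mertk, Cd5l and Cd163 (left) follow the order of the marker sum within each group, though not across the groups. Mfge8 and Marco (right) depart from its order among the PBS libraries and Msr1, Timd4 and Mfge8 among the IL-33 libraries.

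Vsig4 encodes a complement receptor that binds fragments of C3 and is known from resident tissue macrophages. It was near the filter, at 0.830, 0.276 and 1.00 FPKM in the 3 IL-33 libraries and at 1.11, 1.43 and 3.48 FPKM in the 3 PBS libraries. All IL-33 libraries were below all PBS libraries, and PBS replicate 3 was far above the rest. At the size of 1 fragment read from the low FPKM steps and the annotated transcript length, these values stood for roughly 17.0, 5.33 and 17.9 fragments with IL-33 and 21.2, 29.8 and 80.7 fragments with PBS. The means were 0.702 ± 0.379 FPKM with IL-33 and 2.01 ± 1.28 FPKM with PBS (SD, n = 3 each). The log2 change of -0.77 (SE 0.30) did not pass (limma adjusted p = 0.0641), and without PBS replicate 3 it was -0.44 (adjusted p = 0.131). With smaller pseudocounts it was -1.0003 (pseudocount 0.5) and -1.37 (pseudocount 0.1), neither of which passed. Vsig4 met the filter in all PBS libraries and in 1 IL-33 library. It passed with equal totals (-0.94, adjusted p = 0.024), with library weights (-0.84), without PBS replicate 1 (-0.98) and with an equal macrophage marker sum (-0.85, adjusted p = 0.0039). The adjusted p ranged from 0.0039 to 0.174 over the alternatives. The ratio of Vsig4 to Cd163 within a library was 0.0251, 0.0106 and 0.0206 with IL-33 and 0.0421, 0.0334 and 0.0732 with PBS, a log2 difference of -1.41 with no overlap (exact permutation p = 0.1). C3, the gene of the complement protein it binds, stood at 74.95, 98.2 and 101 FPKM in the IL-33 libraries and at 16.9, 17.5 and 16.9 FPKM in the PBS libraries.

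Stab1 encodes a large scavenger receptor of sinusoidal endothelium and of some macrophages. It was at 0.441, 0.390 and 0.333 FPKM in the 3 IL-33 libraries and at 0.359, 0.394 and 0.403 FPKM in the 3 PBS libraries. No library reached 1 FPKM, and the groups overlapped. These levels stood for roughly 33.4 to 50.3 fragments with IL-33 and 38.2 to 52.2 fragments with PBS, and part of the gene overlaps Nt5dc2 on the other strand. Without the filter the log2 change was 0.002 (95% confidence interval -0.10 to 0.11, limma adjusted p = 0.977). Its paralogue Stab2, which was no member, was far more abundant per length, at 13.8, 10.9 and 16.8 FPKM with IL-33 and 8.82, 12.6 and 14.4 FPKM with PBS, and did not pass (log2 change 0.20, limma adjusted p = 0.416).

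By mean FPKM the members ran from Axl through Cd5l, Mertk and Cd163 down to Vsig4 and Stab1 in both groups. The middle of the order differed. With IL-33 Msr1 (25.5 FPKM) and Timd4 (23.4 FPKM) were the fifth and the sixth with overlapping ranges, Msr1 also overlapping Cd163, ahead of Marco (9.40 FPKM) and Mfge8 (7.27 FPKM). With PBS Timd4 (16.5 FPKM) was the fifth, followed by Marco (9.62 FPKM), Msr1 (7.94 FPKM) and Mfge8 (5.498 FPKM), and the ranges of Marco, Msr1 and Mfge8 overlapped from one to the next. The ranges of Axl and Cd5l overlapped in both groups, as did those of Mertk and Cd163. Together Axl and Cd5l made up 71.1% to 72.7% of the summed FPKM of all 10 members with IL-33 and 68.5% to 71.7% with PBS.

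The genes with the profiles most like the members were found by the root mean square (RMS) difference of centred log2(FPKM + 1) values over the 6 libraries. For Mertk they were the apolipoprotein gene Apoc1 (RMS difference 0.10) and Cd163 (0.11), and for Cd163 they were Mertk (0.11) and Sema6d (0.11). For Axl they were the lysosomal phospholipase-family gene Pld3 (0.04) and the integrin gene Itgad (0.06), and for Cd5l the lysosomal protease gene Lgmn (0.11). For Timd4 they were Pfdn1 (0.04) and Tnfrsf21 (0.05), for Mfge8 Mul1 (0.03) and Ndrg1 (0.03), and for Marco Fam216a (0.08) and Gemin6 (0.10). For Msr1 they were the pseudogene Hmga2-ps1 (0.12) and Prelid2 (0.14), and for Vsig4 Ncald (0.23) and the histone gene Hist1h4b (0.24).

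The other genes of the uptake pathways are given by list, with changes as log2 differences of FPKM + 1 and calls from the limma test above, to be read against 28.0% of all tested genes higher, 25.5% lower and a median of 0.01. Over all genes, 1272 were higher and 5886 lower of 11553 tested with equal totals. Of 11518 genes, quantile normalization gave 2545 higher and 2877 lower, cyclic loess 2732 higher and 2650 lower. List counts under these settings are to be read against those numbers. Pathway and cell type lists were chosen with earlier results of these data known, so the shares over all genes are no independent yardstick for them. Among 10 tested bridging molecules and opsonins 7 rose and none fell, with a median change of 0.57. C3 rose by 2.34 (SE 0.11), the phosphatidylserine-binding annexin gene Anxa5 by 0.74 (SE 0.08) and Pros1, which encodes the TAM ligand protein S, by 1.04 (SE 0.16). Pros1 stood at 11.2, 10.4 and 7.04 FPKM with IL-33 and at 3.83, 4.35 and 3.95 FPKM with PBS. Gas6, the other TAM ligand gene, was at 2.96, 1.90 and 1.72 FPKM with IL-33 and at 1.14, 1.89 and 1.72 FPKM with PBS and did not pass (adjusted p = 0.195). Tyro3, the remaining TAM kinase gene, stayed under 0.49 FPKM in every library. Gas6 and Tyro3 are named here after their values were seen. The count of 7 was 3 with equal totals, 3 with quantile normalization and 4 with cyclic loess (1 was lower with each of the last 2), and 4 without IL-33 replicate 1 or PBS replicate 1.

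Among 10 tested other receptors for apoptotic cells 3 rose and 4 fell (median -0.09). Itgb3, the β3 chain of the integrin that binds Mfge8, fell by 0.69 (SE 0.11), Havcr1, which encodes the phosphatidylserine receptor TIM-1, fell by 0.94 (SE 0.16) and Cd300lb rose by 0.78 (SE 0.14). Itgb3 was at 3.47, 4.25 and 3.70 FPKM with IL-33 and at 7.48, 6.94 and 5.81 FPKM with PBS. The lower count was 3 to 6 over the scalings and leave-outs, while the higher count was 1 under each of these scalings and without IL-33 replicate 2. Of the other genes in the family of Timd4 and Havcr1, Havcr2 did not pass (-0.02, adjusted p = 0.903) and Timd2 was below the filter, both named after their values were seen.

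Among 11 tested other scavenger receptors 6 rose and 2 fell (median 0.32). Cd36, which takes up oxidised lipoproteins and fatty acids, rose by 1.04 (SE 0.12) and stood at 93.1, 105.9 and 93.2 FPKM with IL-33 and at 39.6, 48.3 and 53.6 FPKM with PBS. Cxcl16, a chemokine that also binds oxidised lipoprotein, rose by 0.70 (SE 0.09) and Olr1, the lectin-like receptor for oxidised lipoprotein, by 0.79 (SE 0.11). Olr1 was below 0.48 FPKM in every PBS library and passed the filter through the IL-33 libraries alone, so its direction was fixed by the filter, and 5 of the 6 higher calls do not depend on it. The higher count was 3 with each of equal totals, quantile normalization and cyclic loess, and 3 without IL-33 replicate 2 or 3.

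Genes acting after recognition were also split. Of 17 tested genes of the engulfment machinery 6 rose and 4 fell (median 0.11). The GTPase genes Rac1 and Rhog rose by 0.67 (SE 0.08) and 0.58 (SE 0.08), and Elmo1, which couples receptors to Rac, fell by 0.68 (SE 0.10). With equal totals 2 were higher and 9 lower, with cyclic loess 7 were lower, and 2 were lower without IL-33 replicate 2 or PBS replicate 2. Of 14 genes for disposal and lipid export 7 rose and 2 fell (median 0.31), among those that rose the lysosomal cholesterol carrier gene Npc2 by 1.02 (SE 0.09), the nuclease gene Dnase2a by 0.96 (SE 0.12) and the mitochondrial carrier gene Ucp2 by 0.68 (SE 0.07). With equal totals 4 were higher and 4 lower, and the lower count was 1 without IL-33 replicate 1 or 2 and 0 without IL-33 replicate 3 or PBS replicate 1 or 2.

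Of 7 genes on a list of do-not-eat-me signals and inhibitory receptors, 4 rose and none fell (median 0.24). Lilrb4a (0.99, SE 0.14), Cd24a (0.97, SE 0.15), Pilra (0.72, SE 0.18) and Cd47 (0.24, SE 0.08) rose. Sirpa (0.09, adjusted p = 0.535), Siglecg (-0.29, adjusted p = 0.0686) and Pirb (0.19, adjusted p = 0.105) did not pass. Cd47 and the genes that did not pass are named here after their values were seen. With equal totals and with quantile normalization 2 were higher and 2 lower, cyclic loess gave 2 lower, and 1 was lower without PBS replicate 3. Of 7 tested genes on a list of surface proteases, furin and iRhoms, the cofactors of Adam17, 4 rose and 1 fell (median 0.33). Adam17, which is known to release Mertk and Cd163 from the surface, did not pass (0.14, adjusted p = 0.107, named after its value was seen). The protease genes Adam8, Furin and Adam10 rose by 1.28 (SE 0.07), 0.96 (SE 0.10) and 0.34 (SE 0.06). With equal totals 2 were higher and 2 lower, and none were lower with quantile normalization, with cyclic loess or without IL-33 replicate 2. The lower gene, Rhbdf1, passed the filter through the PBS libraries alone and was not tested without any 1 of them. Of 6 tested genes for haem and haemoglobin handling, the pathway that Cd163 feeds, 3 rose and none fell (median 0.17), namely the biliverdin reductase genes Blvra (0.88, SE 0.11) and Blvrb (0.53, SE 0.15) and the haem transporter gene Slc48a1 (0.59, SE 0.09). In addition 3 were lower with equal totals, 2 with quantile normalization, 2 with cyclic loess and 1 without PBS replicate 1. Of 9 tested macrophage transcription factors 5 rose and none fell (median 0.36), among them Id3 (0.70, SE 0.09), Bhlhe41 (0.70, SE 0.13) and Spi1 (0.36, SE 0.08). With equal totals 3 were higher and 1 lower, and 3 were higher with quantile normalization and with cyclic loess.

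**Figure D5:**
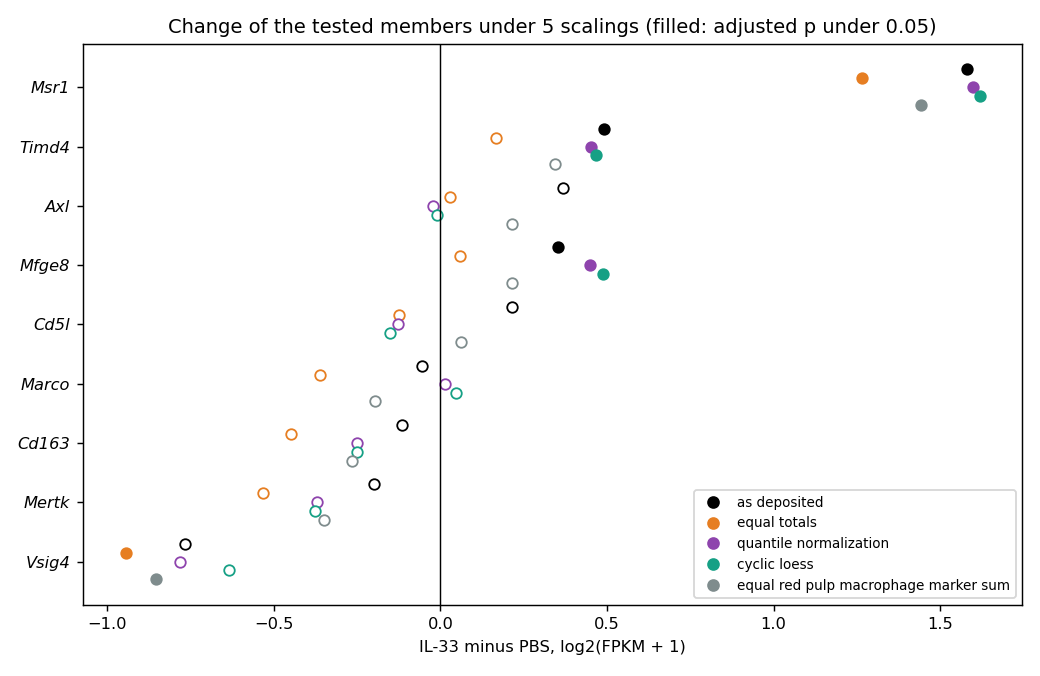
Change of the 9 tested members, as log2(FPKM + 1) with IL-33 minus that with PBS, as deposited and under 4 other scalings between libraries, filled where the limma adjusted p is under 0.05. Msr1 is filled under all 5, Timd4 and Mfge8 under 3, and Vsig4 with equal totals and with an equal macrophage marker sum.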

How the data were processed

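RNA of splenic CD11c+ cells sorted by autoMACS was made into stranded mRNA libraries, per the labels' protocols. The authors deposited 1 table of FPKM values per library. The submitters' processing notes name Cuffnorm 2.2.1, TopHat2 2.0.13, Bowtie2 2.2.3 and SAMtools 0.1.19, and the build mm10. The sources used here give neither the annotation nor the scaling method, and do not say whether counting used strand. FPKM values hold no counts, so the absolute depth is unknown. On single-transcript genes under 0.3 FPKM, 74.5% to 76.8% of the low values lay within 0.2 of a whole number of fragments. These steps gave the relative depths, which hold the unknown scaling between libraries, and the approximate fragment numbers. The fragment numbers cover no counting error beyond their size.

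Genes with at least 1 FPKM in 3 libraries (11518) were fitted as log2(FPKM + 1) with limma 3.58.1 (R 4.3.3) with treatment as the term and a variance trend. The pseudocount of 1 understates changes of low genes. The code was tested on simulated data. Ratios and single values used exact two-sided permutation tests. Positions are from GENCODE M21 (mm10) and promoters from RefSeq (GRCm38.p6). Members, lists and tests were chosen with earlier results of these data known. Genes were named as members, as up to 3 called genes with the smallest adjusted p per list, and as the 2 nearest profiles per tested member within 1 log2 unit of its mean level, leaving out predicted genes, small RNAs and antigen receptor segments. Of these profiles 1 is not reported here. Labels name no batch. Alternatives are given in the closing section. Tables and figures used matplotlib 3.10.9, pandas 2.3.3 and Python 3.11.15.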

Additional observations from a re-analysis of the deposited data

How the results depend on the processing

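The count of 3 members higher and 0 lower with IL-33 was 1 and 1 with equal totals, and 1 and 1 with an equal sum of red pulp macrophage markers, a setting added after the data were seen, in which 4.79% of all genes were higher and 8.26% lower (28.0% and 25.5% as deposited). With library weights 3 were higher and 1 was lower. With 1 library left out, 2 to 3 were higher and 0 to 1 lower, and the 3 without PBS replicate 3 included Cd5l and not Mfge8. The replicate numbers did not pair the libraries: deviations of same-numbered libraries from their group means correlated at 0.075, -0.0544 and 0.089. With the replicate number as a block 2 members were higher and 1 lower, and neither the counts nor the calls of Mfge8 (adjusted p = 0.0576) and Vsig4 (0.0279) are read as pairing. Without a filter 2 were higher, Mfge8 having an adjusted p of 0.0686. Both pseudocounts (0.1 and 0.5), the filter of 5 FPKM (which removed Vsig4) and the other variance settings gave 3 and 0, although Vsig4 stood at -1.37 and -1.0003 with these pseudocounts. Signs turned only for members that did not pass: Cd5l with equal totals (-0.12), quantile normalization (-0.13) and cyclic loess (-0.15), Marco (0.0150 and 0.0476) and Axl (-0.0217 and -0.0109) with the last 2 of these, and, with 1 library left out, Cd5l (-0.0104 to 0.45), Marco (-0.23 to 0.10) and Cd163 (-0.37 to 0.0856). The cause was not tested. The median change of all genes was -0.29 with equal totals and -0.13 with equal marker sums. Relative to that median, Msr1 stood at 1.57 as deposited and 1.56 with equal totals, Timd4 at 0.48 and 0.46, and Mfge8 at 0.34 and 0.35. Cd5l was at 0.20 and 0.17, so it did not turn on that scale with equal totals. Equal totals multiplies each library by 1 factor, which subtracting the median nearly removes, so these pairs of values had to be close. Relative to the median of each setting, quantile normalization and cyclic loess gave -0.11 and -0.16 for Cd5l and -0.0078 and -0.0169 for Axl. At 3 libraries a group the exact tests cannot go below 0.1, and the low levels of Vsig4 and Stab1 limit what could be detected for them.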
